A study of Hippoglossus hippoglossus with 15 samples.

Results

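The 200 probes described here detected transcripts that were low at the germ ring stage (GR), high in replicates 1 and 2 of the 10-somite stage (10SS) and in hatched larvae (HT), and still at the GR level in 10SS replicate 3. They were chosen by their measured levels on the GR, 10SS and HT arrays, out of 10180 probe names on a custom Agilent array for Atlantic halibut (Hippoglossus hippoglossus). The mean of 10SS replicates 1 and 2 had to lie at least 4 log2 units above the GR mean, the HT mean no more than 1.5 below the mean of those 10SS replicates, and 10SS replicate 3 at most 1 above the GR mean. The first threshold was passed by 524 probes, 472 of these also passed the HT threshold, and 269 passed all 3. The 200 with the largest difference between 10SS replicates 1 and 2 and GR were kept. All values are log2 levels relative to the array, that is log2 of the processed spot signal minus log2 of that array's 75th percentile, averaged over the spots of a probe. Because the GR, 10SS and HT arrays chose the probes, their levels there are a description and carry no test. The 8-cell stage (8CS) arrays took no part in the choice.

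The series holds 15 one-colour arrays of whole embryos in 5 groups of 3 arrays. High quality embryos (HQ) were sampled at 8CS, GR, 10SS and HT, at 8, 82, 142 and 340 hours post fertilisation (hpf). Low quality embryos (LQ) were sampled at 8CS only, at 8 hpf. Quality was graded by the fertilisation and hatching success of each egg batch, and all eggs were fertilised in vitro with pooled sperm from farmed or captive breeders, with no genetic modification or treatment named in the labels. The methods describe 1 collection for the stage series and another for the quality comparison. Eggs of the quality comparison were kept in Petri dishes in seawater with penicillin, streptomycin and neomycin. Those of the stage series were kept in large incubators, with no antibiotic named. The collections also differed in site, broodstock diet and incubation temperature. Which of them supplied the HQ 8CS arrays is not given in the sources used here. The part of these differences in the values below was not tested. The replicates are separate batches in the study's methods, whereas the labels give only replicate numbers.

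A fish egg is first run by transcripts the mother stored in it, and the embryo's own genome takes over before and during gastrulation, when the germ ring forms and spreads over the yolk. During segmentation, somites bud off in pairs from head to tail and give rise to the body muscle and the axial skeleton, while the brain, the eyes and the heart take shape. Genes for contractile proteins and other products of differentiated tissues are typically switched on in this window and stay on in the hatched larva.

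The array files used here pair no probe with a gene name. None of the 200 probes appeared in the study's tables of named transcripts (0 of 200), and 0 of 200 matched the 27732 genes of the RefSeq gene table for halibut by identifier. The probe names are contig labels and sequence identifiers of another kind than that table lists, so this match could not name a gene. The probes are therefore given by name only. Of the 200 names, 97 contain the word Contig and 103 are single sequence identifiers. Their gene products and roles are not given here.

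Some arrays stood apart from their groups. 10SS replicate 3 stood apart from the rest of its group across the whole array. Over the 9656 probes that did not pass the first threshold, it correlated with the GR arrays at r = 0.95, 0.95 and 0.95, with 10SS replicates 1 and 2 at 0.93 and 0.93, and with the HT arrays at 0.89, 0.89 and 0.89, while 10SS replicates 1 and 2 correlated at 0.99. These are descriptions across probes, which are not replicates. 10SS replicate 3 is therefore named separately throughout. The arrays came from 5 slides. 10SS replicate 3 lay on slide 5 with the 3 HT arrays, 10SS replicates 1 and 2 lay on slides 2 and 3, and the GR arrays on slides 2, 3 and 4, so the slide and the difference of 10SS replicate 3 from its group cannot be told apart. The HQ 8CS arrays were also split, in that replicates 1 and 2 (slide 1) read these probes far higher than replicate 3 (slide 4). No spot was saturated on any array, and 69.3 to 90.1% of all probes were well above background per array. A probe was counted as well above background on an array when the image analysis software had flagged most of its kept spots so.

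The 200 probes were high on every HT array and on 10SS replicates 1 and 2, intermediate on HQ 8CS replicates 1 and 2, and low on the other arrays. The median over the probes was 0.57 in 10SS replicate 1 and 0.49 in replicate 2, and -6.62 in 10SS replicate 3. It was -7.12, -6.81 and -6.31 on the GR arrays and 1.75, 1.66 and 1.48 on the HT arrays. In HQ 8CS it was -4.03, -3.53 and -6.32 in replicates 1, 2 and 3, and in LQ 8CS -7.77, -7.48 and -6.48. Over all 10180 probes the array medians lay between -2.77 and -2.37. Each array was centred on a percentile of its own signal, so these medians cannot show whether a whole array shifted. Scaled on the spike-in probes instead, 10SS replicates 1 and 2 lay 1.48 above GR at the median of all probes (-0.47 in the values reported). For the 200 probes that rise was 8.57. On the same scale 10SS replicate 3 lay 1.44 above GR over all probes and 1.21 over the 200. Because whole embryos were measured, fewer cells of a type and less RNA per cell cannot be told apart in any of these values.

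**Figure D1:**
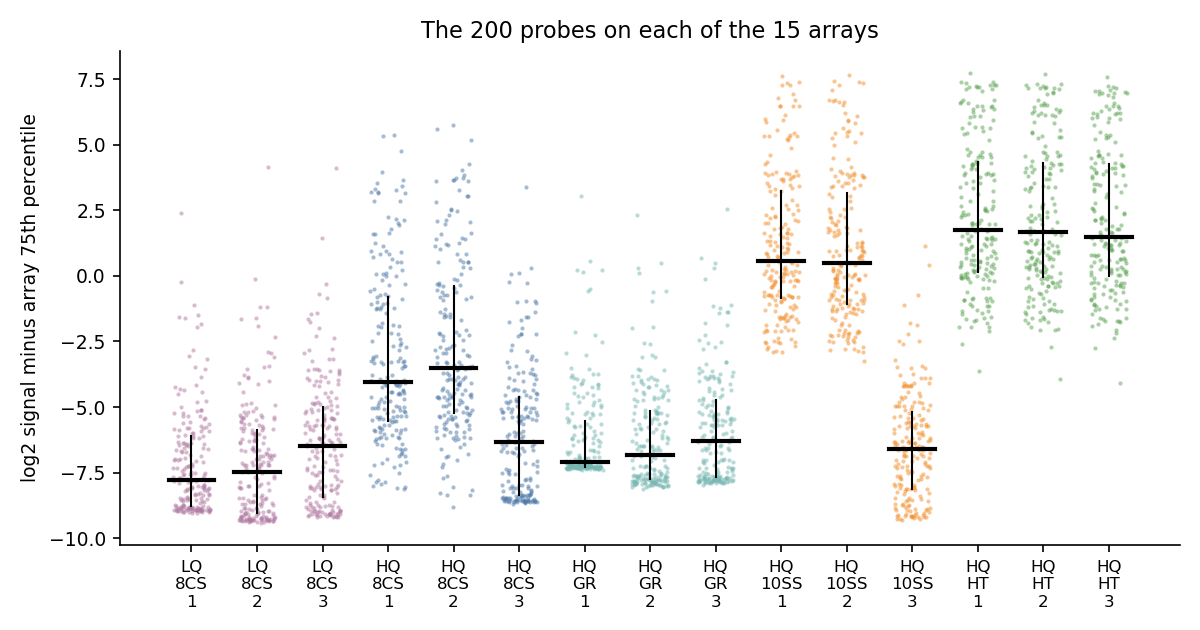
Log2 level relative to the array's 75th percentile (vertical axis) of the 200 probes on each of the 15 arrays (horizontal axis, group and replicate). Points are probes, thick bars medians and thin lines quartiles. 10SS replicate 3, with a median of -6.62, sits with the GR arrays, and HQ 8CS replicates 1 and 2 (-4.03 and -3.53) sit above HQ 8CS replicate 3 (-6.32).

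The values that chose the probes spread widely. The rise from GR to 10SS replicates 1 and 2 was 6.62 log2 units at the median, with quartiles of 5.55 and 8.32 and a range of 4.77 to 13.14. 10SS replicates 1 and 2 read the probes closely, within 0.5 of each other for 192 of the 200 and at most 1.63 apart. At the lower end of the ranking, HH_90988094 had a difference of 4.77 and was the last kept, and HH_Contig13 with 4.74 was the first left out. For 10SS replicate 3 minus GR, the highest value kept was 1.00 and the lowest left out among probes with as large a rise was 1.03. For HT minus 10SS replicates 1 and 2, the lowest value kept was -1.33 and the highest left out was -1.55.

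All 200 probes were well above background on 10SS replicates 1 and 2 and on every HT array. On 10SS replicate 3 this held for 111 of the 200, against 86.1% of all probes on the array. It held on every GR array for 37 probes (68.9% of all probes on the array), on some GR arrays for others, and on no GR array for 117. Among these 117, 33 were well above background on 10SS replicate 3. A low value of such a probe is an upper limit, and the limit differed between arrays, since the lowest value of any probe was -7.42, -8.16 and -7.98 on the GR arrays and -9.36 on 10SS replicate 3. 10SS replicate 3 read below every GR array for 94 probes (41.6% of all probes did so), within the GR range for 64 and above every GR array for 42 (33.5% of all probes). Once all values were raised to a common floor of -5.46, the highest of the arrays' lowest levels that were well above background, it read below every GR array for 22 (29.2% of all probes) and above for 19 (29.7% of all probes). The median of 10SS replicate 3 minus GR was -0.34, close to the -0.12 over all probes, and its sign depended on the scaling, with -0.02 after quantile normalization, 0.0035 in the authors' table, 1.21 after spike-in scaling, -1.49 with normexp and -0.97 with normexp after outlying backgrounds were replaced.

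**Figure D2:**
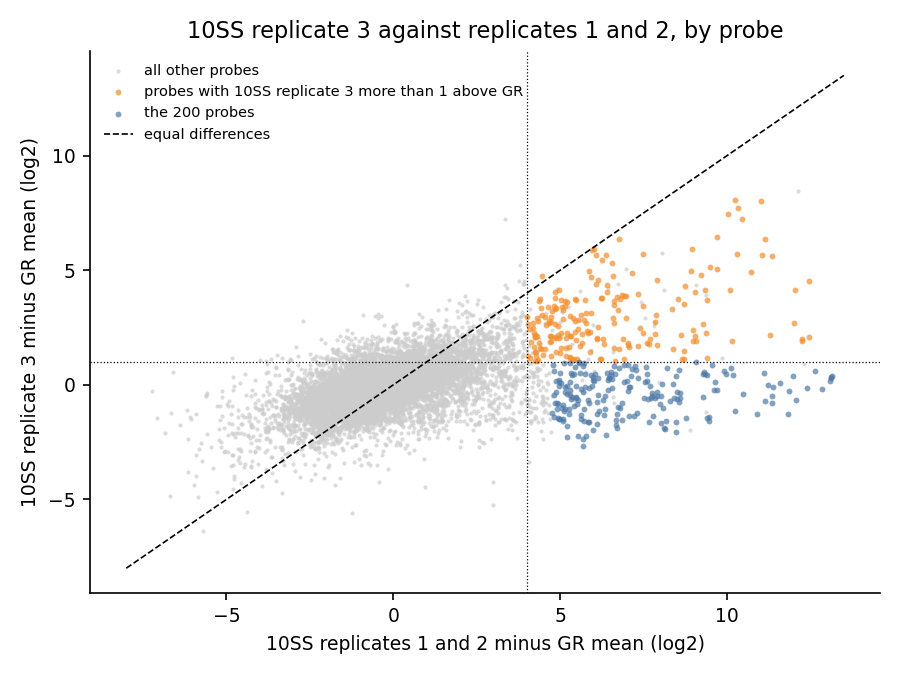
Log2 difference of 10SS replicate 3 from the GR mean (vertical axis) against that of 10SS replicates 1 and 2 (horizontal axis) for all 10180 probes. Dotted lines mark the thresholds of 1 and 4, and the dashed line marks equal differences. The 200 probes (blue) lie between -2.67 and 1.00 on the vertical axis by the rule, and the 203 orange probes lie above 1.

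The 12 probes with the largest rise are described next, the first with all its values and the others with part of theirs. HH_75738449 read -7.28, -7.72 and -4.72 on the GR arrays, 6.50 and 6.63 in 10SS replicates 1 and 2, -6.18 in 10SS replicate 3 and 7.29, 7.24 and 7.10 at HT. It was well above background on 1 of 3 GR arrays. Its level in 10SS replicates 1 and 2 was at least 3962-fold its GR level. For such bounds a dim array is taken at the lowest signal that was well above background on it, or at the probe's own value where that was higher. In HQ 8CS it read 3.18, 3.63 and -2.23, and in LQ 8CS -8.11, -7.32 and -3.58. The high and low arrays did not overlap between 10SS replicates 1 and 2 or HT on the one side and GR on the other, whereas each 8CS group held values far apart.

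HH_90987967, HH_Contig21 and HH_Contig136 moved between arrays much as HH_75738449 did. Their rises from GR to 10SS replicates 1 and 2 were 13.13, 13.08 and 12.84. Their HQ 8CS levels were 3.19, 3.65 and -2.21 for HH_90987967, 3.16, 3.62 and -2.23 for HH_Contig21, and 3.21, 3.64 and -2.29 for HH_Contig136. Whether these probes detect the same transcript was not tested.

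HH_Contig1267 read -6.81, -6.18 and -5.25 at GR, 6.96 and 7.10 in 10SS replicates 1 and 2, -5.78 in 10SS replicate 3 and 7.13, 6.98 and 6.95 at HT. It thus stayed at its 10SS level after hatching, with a difference of -0.01. HH_Contig734 read -7.06, -6.25 and -6.63 at GR, below the background limit on all 3 arrays, and 5.89 and 6.09 in 10SS replicates 1 and 2, which made the latter at least 3747-fold higher. In HQ 8CS, HH_Contig734 showed the widest gap between arrays of all 200 probes, with 0.08 and 0.54 in replicates 1 and 2 and -6.87 in replicate 3.

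HH_Contig767 and HH_62388173 were well above background neither on any GR array nor on 10SS replicate 3. HH_Contig767 read 4.89 and 4.99 in 10SS replicates 1 and 2, at least 1812-fold above GR and at least 6117-fold above 10SS replicate 3 (-7.79). HH_62388173 read 4.27 and 4.16, at least 1092-fold above GR and at least 3687-fold above 10SS replicate 3 (-8.86). Both rose further to HT, by 1.39 and 1.19 in the means.

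HH_90602639 read -7.16, -6.36 and -3.62 at GR against 6.80 and 6.54 in 10SS replicates 1 and 2, with -5.85 in 10SS replicate 3. HH_Contig823 read -5.66, -5.22 and -2.77 at GR, 7.40 and 7.43 in 10SS replicates 1 and 2 and -4.18 in 10SS replicate 3. HH_Contig122 read -5.77, -5.35 and -2.42 at GR, 7.30 and 7.36 in 10SS replicates 1 and 2 and -4.80 in 10SS replicate 3. In each of these probes, as in HH_75738449, the GR array on slide 4 (replicate 3) was the highest of the 3. HH_Contig42 was well above background on all 15 arrays, with -4.82, -4.21 and -3.86 at GR, 7.30 and 7.27 in 10SS replicates 1 and 2, -4.21 in 10SS replicate 3 and 7.74, 7.71 and 7.58 at HT.

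The probes also differed in what followed segmentation. The HT mean was more than 1 above 10SS replicates 1 and 2 for 96 of the 200 (15.0% of all probes did so), within 1 of them for 96 and more than 1 below for 8. Every HT array was above both 10SS replicates 1 and 2 for 151 probes and below both for 29, and the share of all probes was not counted for either. The median difference was 0.92, with quartiles of 0.20 and 1.92. These counts rest on values the rule used, since probes with a larger fall were left out, and no more is read from them.

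The largest further rise was that of HH_Contig1363, which read 1.66 and 1.75 in 10SS replicates 1 and 2 and 6.48, 6.73 and 6.50 at HT, a difference of 4.86. It was below the background limit on every GR array and read -6.36 in 10SS replicate 3. HH_Contig1403 read -0.14 and -0.27 in 10SS replicates 1 and 2 and 3.92, 3.94 and 3.94 at HT, and HH_Contig2618 read -0.35 and -0.70 against 3.38, 3.41 and 3.23. HH_90603621 and HH_90603271 rose by 3.74 and 3.55. None of these 5 was well above background on any GR array. From GR on they were low at GR and in 10SS replicate 3, intermediate in 10SS replicates 1 and 2 and highest at HT. That order follows from how the 5 were chosen. Before GR, all 5 were well above background on 2 or 3 of the HQ 8CS arrays.

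At the other end, HH_90600597 read 1.14 and 0.98 in 10SS replicates 1 and 2 and -0.08, -0.46 and -0.27 at HT, a difference of -1.33. It was well above background on no 8CS or GR array and not on 10SS replicate 3, so that its signal was confined to 10SS replicates 1 and 2 and the 3 HT arrays among the 15. HH_90599275 had the same pattern of detection, with -2.50 and -2.70 in 10SS replicates 1 and 2 and -3.62, -3.92 and -4.08 at HT. HH_Contig910 and HH_90598727 fell by 1.27 and 1.20 in the means from 10SS replicates 1 and 2 to HT. In all, 13 of the 200 probes were well above background on none of the 9 8CS and GR arrays.

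**Figure D3:**
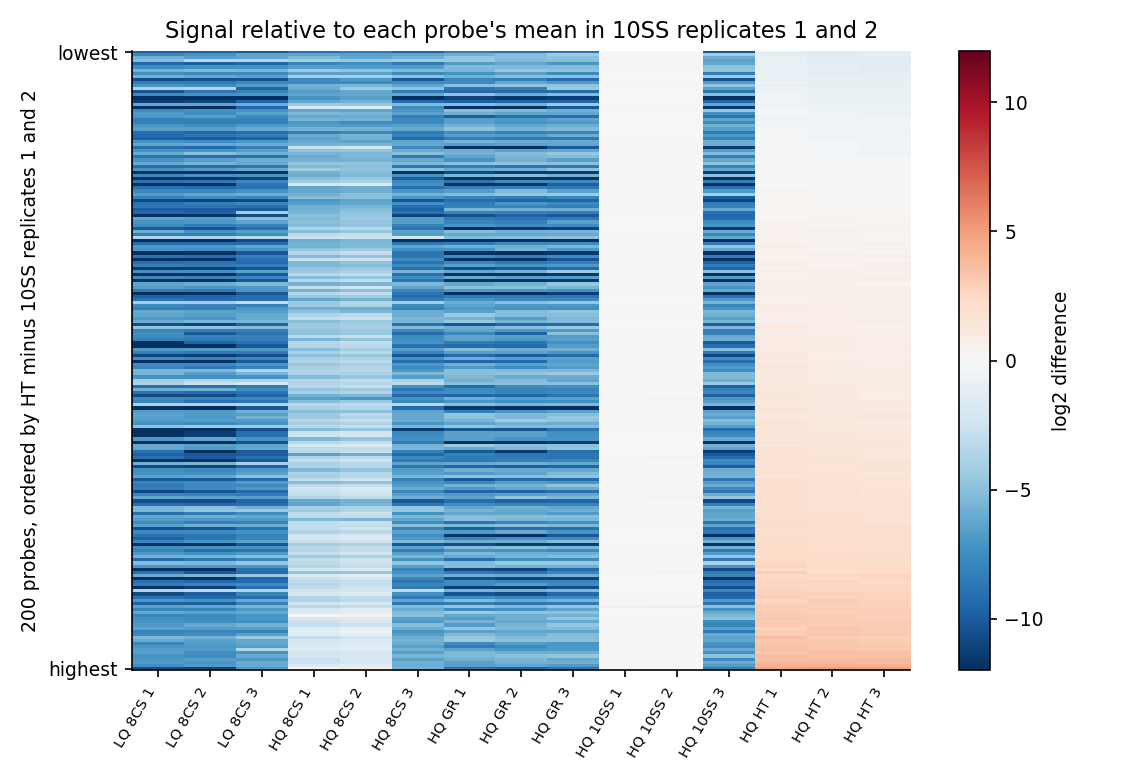
Log2 difference of each array (columns) from the mean of 10SS replicates 1 and 2 for each of the 200 probes (rows, ordered by HT minus 10SS replicates 1 and 2, from -1.33 at the top to 4.86 at the bottom). Blue is lower and red is higher. HQ 8CS replicates 1 and 2 are paler toward the bottom, among the probes that are highest at HT relative to 10SS.

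Some of the 200 were already detected at GR. Of the 37 probes that were well above background on every GR array, all 37 were also so on 10SS replicate 3 (86.1% of all probes were). Of the 37, 17 read below every GR array there, against 41.6% of all probes, and no more is read from this count. HH_Contig258 was bright in every group, with 3.06, 2.32 and 2.57 at GR, 3.54, 3.07 and 3.41 in HQ 8CS, 2.39, 4.17 and 4.14 in LQ 8CS, 7.61 and 7.66 in 10SS replicates 1 and 2, and 6.71, 6.35 and 6.17 at HT. Its lowest value of the series was the 1.15 of 10SS replicate 3. HH_Contig171 read 0.21, 0.12 and -0.11 at GR, -2.22 in 10SS replicate 3 and 5.29 and 5.27 in 10SS replicates 1 and 2. HH_Contig648 read 0.58, 0.51 and 0.70 at GR, -1.10 in 10SS replicate 3 and 6.72 and 6.71 in 10SS replicates 1 and 2. In each of these 3 probes, 10SS replicate 3 lay below the whole GR range by more than the width of that range. Spike-in scaling moved the median of 10SS replicate 3 minus GR over all probes from -0.12 to 1.44. The differences from the GR mean were then 0.06 for HH_Contig258, -0.74 for HH_Contig171 and -0.14 for HH_Contig648. HH_Contig258 thus no longer read below the GR mean, and the other 2 still did, by less. From the lowest GR array the differences were 0.56, -0.13 and 0.18, so only HH_Contig171 still lay below the whole GR range.

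The lowest values of 10SS replicate 3 relative to GR were those of HH_90601428 (-2.67), HH_Contig2599 (-2.37), HH_Contig171 (-2.29), HH_Contig37 (-2.23) and HH_Contig718 (-2.23), and all 5 stayed below 0 after spike-in scaling (-1.11 to -0.67). HH_90601428 and HH_Contig2599 were not well above background on 10SS replicate 3, so their values there are upper limits. HH_Contig37 was well above background on every array, with -3.56, -3.60 and -3.29 at GR, -5.72 in 10SS replicate 3 and 2.14 and 1.98 in 10SS replicates 1 and 2. HH_Contig718 read -4.13, -4.35 and -4.04 at GR, -6.40 in 10SS replicate 3 and 1.60 and 1.62 in 10SS replicates 1 and 2. At the upper edge of the rule, HH_Contig1363, HH_90604577, HH_47232460, HH_94963170 and HH_90603770 lay 0.94 to 1.00 above the GR mean in 10SS replicate 3. HH_47232460 was below the background limit on all 9 8CS and GR arrays and well above it in 10SS replicate 3 at -6.32, with -1.53 and -1.62 in 10SS replicates 1 and 2. The lowest level well above background was -7.64 on 10SS replicate 3 and -5.46, -5.97 and -6.21 on the GR arrays. A level of -6.32 would thus not have counted as detected at GR.

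The 8CS arrays gave a readout that the rule had not used. At 8CS, 97 of the 200 probes were well above background on every HQ array, against 73.8% of all probes, and 61 on every LQ array, against 75% of all probes (7633 of 10180). By replicate, 156, 186 and 103 of the probes (78, 93 and 51.5%) were well above background in HQ 8CS replicates 1, 2 and 3. Over all probes the shares were 76.2, 80.6 and 78.8%. In LQ 8CS replicates 1, 2 and 3 it was 64, 86 and 108 of the probes (32, 43 and 54%), against 75.7, 78.9 and 79.8% of all probes. At least 1 HQ 8CS array was well above background for 187 of the 200, and at least 1 LQ 8CS array for 111. The share of all probes was not counted for either, so no more is read from them.

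Within HQ 8CS the 3 arrays did not read these probes alike. The SD over the 3 HQ 8CS arrays was 1.89 log2 units at the median of the 200 probes, against 0.30 over all probes, whereas the SD over the 3 LQ 8CS arrays was 0.42 against 0.26. Replicates 1 and 2 were both more than 1 above replicate 3 for 157 of the 200 probes (4.87% of all probes) and both more than 3 above it for 99 (2.0% of all probes). The mean of replicates 1 and 2 exceeded replicate 3 by 3.24 at the median, with quartiles of 1.66 and 4.60, against -0.04 over all probes. With values raised to the common floor the median gap was 1.38. With normexp background correction it was -2.44 against -1.71 over all probes, so replicates 1 and 2 shifted against replicate 3 across the whole array. Relative to all probes the gap was then -0.73, against 3.28 in the values reported, so its sign was reversed on that measure too. Once outlying local backgrounds were replaced, normexp gave 0.77 against -0.08. At the common floor 105 of the 200 probes were more than 1 higher in both (2.95% of all probes). Slide 1 held HQ 8CS replicates 1 and 2 and LQ 8CS replicate 1, and on the last of these the median was -7.77, the lowest of the 15 arrays.

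Compared with GR, the HQ 8CS level depended on which of these arrays were used. The HQ 8CS mean minus the GR mean was 1.67 at the median of the 200 probes, against -0.27 over all probes, and it was -0.49 when HQ 8CS replicates 1 and 2 were left out. HQ 8CS replicates 1 and 2 both lay above every GR array for 168 of the 200 (31.9% of all probes). HQ 8CS replicate 3 lay above every GR array for 57 (34.6% of all probes) and below every GR array for 103 (44.8% of all probes). At the common floor the median was 0.94 with all arrays. GR entered the rule, which favours probes with low GR levels, so all these comparisons with GR are descriptions. How much of the distance from the values over all probes follows from that choice was not tested.

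The signal in HQ 8CS replicates 1 and 2 followed the HT level of the probe. Across the 200 probes, HQ 8CS replicate 1 correlated with the HT mean at r = 0.95 and with the mean of 10SS replicates 1 and 2 at r = 0.87. For HQ 8CS replicate 2 the values were 0.95 and 0.86. HQ 8CS replicate 3 gave 0.75 and 0.79, and the LQ 8CS arrays gave 0.41, 0.43 and 0.68 with HT and 0.49, 0.51 and 0.73 with 10SS. These correlations are over probes that share array, labelling and brightness, and they are given as descriptions. The offset from the HT mean was -5.34 in HQ 8CS replicate 1 and -4.95 in replicate 2 at the median, with SDs over the probes of 1.07 and 1.06. The offset from 10SS replicates 1 and 2 varied more from probe to probe, with SDs of 1.60 and 1.66.

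**Figure D4:**
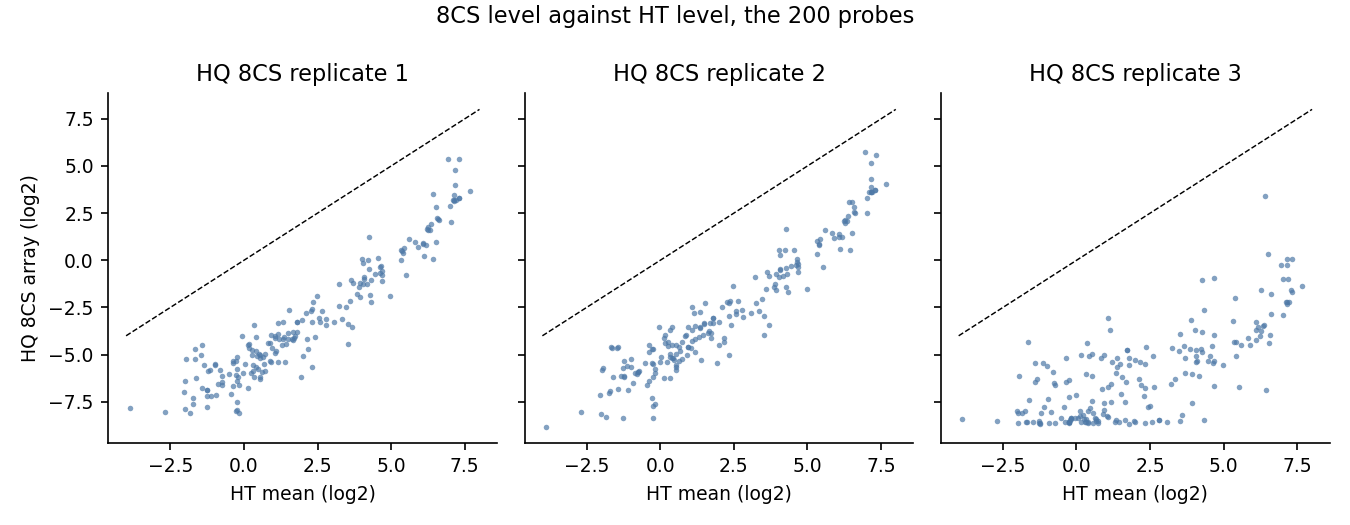
Log2 level on each HQ 8CS array (vertical axes) against the HT mean (horizontal axes) for the 200 probes, with the line of equality dashed. Replicates 1 and 2 run along a band about 5 log2 units under the line (medians -5.34 and -4.95), and replicate 3 does not (median -8.34).

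Single probes show this course and its exceptions. HH_Contig1363, 4.86 higher at HT than in 10SS replicates 1 and 2, read 2.26 and 2.83 in HQ 8CS replicates 1 and 2, above its level in both of those 10SS arrays, and -3.94 in HQ 8CS replicate 3. HH_90600597, the probe lowest at HT relative to 10SS, was below the background limit on all 3 HQ 8CS arrays at -8.01, -7.30 and -8.57, and so lay under that band in replicates 1 and 2. HH_Contig823 read 5.36, 5.76 and -0.25 in HQ 8CS, HH_Contig122 read 5.35, 5.61 and 0.09, and HH_Contig135 read 4.78, 5.17 and -0.24. These 3 belong, with HH_Contig258 and HH_Contig648, to the 5 probes with the highest HQ 8CS means, a ranking that also depends on how brightly each probe hybridises. HH_Contig258 alone of the 5 showed no split, with a gap of -0.11.

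The split was most frequent where HT was brightest, where a low level is also farthest from the background. Of the 39 probes with an HT mean of at least 5, 38 were more than 1 higher in both HQ 8CS replicates 1 and 2 than in replicate 3, and of the 79 probes with an HT mean of 1 to under 5, 71 were. Of the 82 probes with an HT mean under 1, 48 were. In the brightest class, LQ 8CS replicate 3 and GR replicate 3, both on slide 4, had medians above those of their groups. The median was -3.66 in LQ 8CS replicate 3 against -6.56 and -6.78 in LQ 8CS replicates 1 and 2. It was -3.86 in GR replicate 3 against -5.66 and -5.22 in GR replicates 1 and 2. HQ 8CS replicate 3, on the same slide, had a median of -2.88, below the 1.94 and 2.34 of HQ 8CS replicates 1 and 2. The medians of all slide 4 arrays thus lay above those of LQ 8CS and GR replicates 1 and 2. LQ 8CS replicate 3 exceeded both other LQ arrays for 37 of these 39 probes, for 126 of all 200, and for 42.9% of all probes on the array. GR replicate 3 exceeded both other GR arrays for 27 of the 39, for 83 of all 200, and for 42.0% of all probes on the array. The part of the slide or of the handling of a sample in these values was not tested.

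Whether low quality 8CS embryos differed from high quality ones was the study's question at 8CS, and it was the comparison open to a test for these probes. The 200 probes read lower in LQ at the median, and 1 of them was called in the fit across all probes, a call that most alternatives did not return. The LQ mean was below the HQ mean for 197 of the 200 and above it for 3, and the share of all probes was not counted. The median difference was -2.58 log2 units, with quartiles of -4.06 and -1.27, against -0.16 over all probes. Of the 200 probes, 185 passed the signal filter of the fit and 15 did not, where the filter was the 20th percentile on 1 or more of the 6 arrays. Of those 185, 71 passed through HQ arrays alone. With limma and Benjamini-Hochberg adjustment over the 8737 probes tested, 1 of the 200 was called lower in LQ, that is by 2-fold or more with an adjusted p below 0.05 (1.01% of the probes tested were called lower) and 0 were called higher (0.16% of the probes tested). At an unadjusted p under 0.05, limma returned 150 of the 185 against 31.1% of the probes tested. Probes that passed through HQ arrays alone had to read lower in LQ, so these counts are read no further.

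The probe called was HH_Contig2512. It read -5.53, -6.14 and -6.27 in HQ 8CS and -8.32, -8.01 and -7.44 in LQ 8CS, so the groups did not overlap. It was well above background on every HQ 8CS array and on no LQ 8CS array, which makes HQ at least 2.22-fold higher, while the fitted difference was -1.94 ± 0.31 (SE, n = 3 against 3, limma adjusted p = 0.0462). It passed the signal filter through HQ arrays alone, so it had to read lower in LQ, and its call is given as a description. Without the filter its limma adjusted p was 0.0442. Within slide 1 its difference was -2.49 and within slide 4 it was -1.17. HH_Contig2512 was also among the probes with little split in HQ 8CS, with a gap of 0.43 between replicates 1 and 2 and replicate 3. With slide as a fixed block its difference was -1.92 with a limma adjusted p of 0.134. The call was lost in 14 of the 19 alternatives that gave a value, with limma adjusted p from 0.0097 to 0.858 and differences from -2.19 to -0.60 over the 19. Across its development it read -1.27 and -1.28 in 10SS replicates 1 and 2, -7.47 in 10SS replicate 3, and -1.41, -1.35 and -1.26 at HT.

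The bright probes with the largest LQ to HQ differences did not pass. HH_Contig122 differed by -9.17 ± 2.14 (SE, limma adjusted p = 0.0802), with 5.35, 5.61 and 0.09 in HQ and -7.03, -8.01 and -1.42 in LQ. HH_Contig823 differed by -8.60 ± 1.93 (SE, limma adjusted p = 0.0772), with -6.18, -6.78 and -1.98 in LQ. In both, every LQ array was below every HQ array, but the spread inside each group was several log2 units. HH_94963170 differed by -1.72 ± 0.32 (SE, limma adjusted p = 0.0624).

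Every LQ 8CS array was below every HQ 8CS array for 142 of the 200 probes, against 20.7% of all probes, and above every HQ 8CS array for 0, against 15.7% of all probes. Of the 142, 79 were well above background in HQ 8CS replicate 3 and 67 were well above background on no LQ array. At the common floor 64 of the 200 stayed apart, against 13.1% of all probes. The lowest value of any probe was -8.72 on HQ 8CS replicate 3 and -9.11, -9.43 and -9.29 on the LQ arrays, so that a probe at background on all 4 reads lower in LQ on this scale.

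The size of the difference lay in HQ 8CS replicates 1 and 2. On slide 1, LQ replicate 1 was below the mean of HQ replicates 1 and 2 for 199 of the 200 probes, with a median of -3.67. On slide 4, LQ replicate 3 was below HQ replicate 3 for 151, with a median of -0.48. Over all probes the medians were -0.14 and -0.20 on the 2 slides, and the share of all probes that read lower was not counted. At the common floor the medians of the 200 were -1.45 on slide 1 and 0.0 on slide 4. Against HQ 8CS replicate 3 alone, the LQ mean was -0.55 lower at the median. With HQ 8CS replicate 3 left out, limma called 158 of the 185 of these probes tested lower in LQ, of 708 probes called in all. Of all probes tested in that fit, 7.27% were called lower in LQ. The HQ group was then replicates 1 and 2, both on slide 1. Probes could again pass the filter through HQ arrays alone, so this count is read no further. With HQ 8CS replicates 1 and 2 left out, the HQ group is a single array that is assumed to vary like the LQ arrays, and few calls can be made. In that fit 0 of the 120 of these probes tested were called, of 23 called in all, and 36 of the 120 had an unadjusted p under 0.05, against 17.0% of all probes tested in it.

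**Figure D5:**
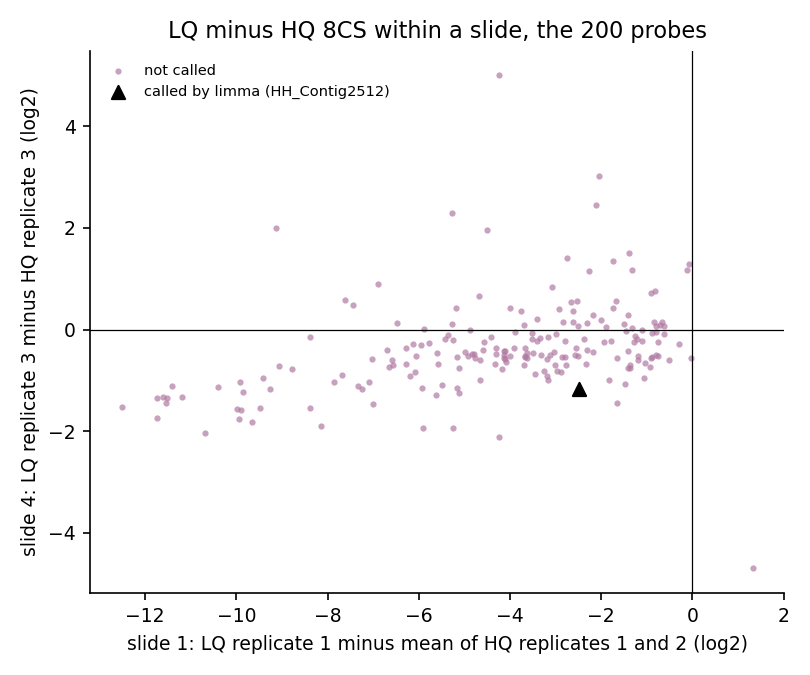
Log2 difference of LQ from HQ 8CS within slide 4 (vertical axis) against that within slide 1 (horizontal axis) for the 200 probes. The triangle is HH_Contig2512, the only probe of the 200 called by limma. The cloud is centred at -3.67 on slide 1 and at -0.48 on slide 4.

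A few probes went their own way between slides, and were singled out after their values were seen. HH_Contig998 differed by -4.25 between LQ and HQ on slide 1, and on slide 4 it was the higher in LQ, with -3.54 in LQ 8CS replicate 3 against -8.54 in HQ 8CS replicate 3. The other LQ arrays read -8.91 and -9.24. HH_Contig383 ran the opposite way, with a difference of 1.32 on slide 1 and -4.70 on slide 4. It read -1.96, -1.59 and -7.76 in LQ 8CS, and its GR arrays were also spread, at -6.94, -6.38 and -2.56. HH_Contig171 was 3.03 higher in LQ on slide 4 and differed by -2.04 on slide 1. None of the 3 was called between LQ and HQ, with limma adjusted p of 0.644, 0.828 and 0.845.

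The nearest probes for comparison were the 203 that passed the first 2 thresholds but lay more than 1 above GR in 10SS replicate 3. Unlike the 200, they were not cut to those with the largest rise from GR to 10SS replicates 1 and 2. Their median rise was 5.89, against 6.62 for the 200. By the rule they differ in 10SS replicate 3, where their median was -2.90 and all 203 were well above background, and replicate 3 had covered 44.8% of the way from GR to 10SS replicates 1 and 2 at their median. The differences that follow are side-by-side values without a test. Their HT mean was more than 1 above 10SS replicates 1 and 2 for 39 of 203 (19.2%), against 96 of the 200 (48.0%), and the median difference was -0.07 against 0.92. HQ 8CS replicates 1 and 2 were both more than 1 above replicate 3 for 102 of 203 (50.2%) against 157 of the 200 (78.5%), and the median gap was 1.35 against 3.24. Neither the HT level nor the rise was matched in these values. By HT mean, it was 18 of 20 against 38 of 39 at 5 or more, and 63 of 87 against 71 of 79 at 1 to under 5. Under 1 it was 21 of 96 against 48 of 82. The median offsets of replicates 1 and 2 from HT in these classes were -4.95, -5.58 and -5.08, against -4.29, -5.24 and -5.39. Every LQ array was below every HQ array for 84 of 203 (41.4%) against 142 of the 200 (71.0%). Among the 203, 1 was called lower and 1 higher in LQ by limma.

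Probes whose courses differ more in HT were set beside them as well, in sets drawn up after the values were seen. Of 30 probes at least 4 above GR at HT but no more than 1 above it in 10SS replicates 1 and 2, 16 (53.3%) were more than 1 higher in both HQ 8CS replicates 1 and 2 than in replicate 3. Of 52 probes that rose by at least 4 to 10SS replicates 1 and 2 and then fell by more than 1.5 to HT, 10 (19.2%) were. The HT level was not matched between the sets. The mean HT level was -0.87 at the median of the 30 probes and -1.43 at that of the 52, against 1.64 for the 200, and the difference in shares was not tested.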

How the data were processed

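Total RNA of 3 egg batches per group was labelled with Cy3 and hybridised to a custom array on which each probe was printed several times, and the 15 arrays lay on 5 slides. The authors deposited one scanner output file per array, with processed signal intensity per spot, already corrected for background by the image analysis software, and flags. The submitters' notes name Agilent Feature Extraction 7.2 and the file headers 10.7.1.1. A deposited table from the authors holds log2 values of 9017 probes, normalised to the 75th percentile and centred on the median of all samples according to the methods, used here only as an alternative. Control spots and spots with an outlier flag (749 to 1186 of 43803 per array) were left out, log2 processed signal was centred on the array's 75th percentile, and spots of a probe name were averaged.

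LQ and HQ 8CS were compared with limma 3.58.1 (R 4.3.3) on the 6 8CS arrays, after probes under the 20th percentile of all 6 were dropped. Benjamini-Hochberg adjustment covered the 8737 probes left, and a call took an adjusted p below 0.05 and a difference of 2-fold or more. The fit was tested on simulated data with an equal spread for every probe, no slide effect and changes in brighter probes only. That simulation does not show how the fit performs on these probes, which the HQ 8CS arrays read unlike each other. The members and lists were chosen with earlier results of these data known. The probes named are the 12 with the largest rise, the 5 highest and 5 lowest in HT minus 10SS replicates 1 and 2 and in 10SS replicate 3 minus GR, the 5 highest HQ 8CS means and those called. Where the labels give replicate numbers only, p-values measure the spread between these samples. With 3 arrays per group, their number limits the precision. Background correction, scaling, filter, slide and replicate blocks, and leaving out arrays were tried as alternatives.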

Additional observations from a re-analysis of the deposited data

How the results depend on the processing

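The count of 1 probe called between LQ and HQ 8CS was also 1 without the signal filter, with slide as a random block, without the fold limit and with a variance prior that follows intensity. The probe was HH_Contig2512 in the first 3 of these and HH_90601722 in the last, where HH_Contig2512 had an adjusted p of 0.0539. It was 0 with the filter on all 6 arrays, with the median over spots, with quantile normalization, in the authors' table, with slide as a fixed block, with normexp, and with normexp after outlying local backgrounds were replaced (an alternative added after seeing the data), where 53 to 168 probes had an unadjusted p under 0.05. These were 37.8 to 90.8% of the 200 that were tested (68 with the filter on all 6 arrays, 185 or 200 otherwise), against 3.55 to 32.7% of all probes tested. It was 3 with all 15 arrays in 1 fit (340 called in all, 3.24% of the probes tested called lower in LQ) and 58 with spike-in scaling (2310 called in all, 2.37% called lower). Spike-in scaling moved the median LQ to HQ difference of all probes from -0.16 to 0.59 and kept that of the 200 at 2.41 below it. Leaving out 1 array gave 0 to 158, with 158 without HQ 8CS replicate 3 (708 called in all, 7.27% called lower), and leaving out HQ 8CS replicates 1 and 2 (added after seeing the data) gave 0. No alternative called any of the 200 higher in LQ.

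The replicate block gave 0 called of the 200 and 17 in all. The deviations of HQ and LQ arrays of the same number correlated at -0.05, -0.15 and -0.11, and those of different numbers at -0.10 to 0.16. Deviations from the mean of 3 arrays are tied to each other, so these values show no pairing by number but cannot exclude one.

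Of the 200 probes, 84 still met the rule's thresholds with normexp, 98 with normexp after outlying backgrounds were replaced and 85 with spike-in scaling, against 185 to 200 when 1 array was left out. The median HQ 8CS minus GR was -0.49 without HQ 8CS replicates 1 and 2 and 1.05 to 2.63 when 1 array was left out, and it stayed above 0 under the other scalings. The median gap between HQ 8CS replicates 1 and 2 and replicate 3, 3.24 in the values reported, was -2.44 with normexp, 0.77 with normexp after outlying backgrounds were replaced, 1.38 at the common floor and 3.03 to 3.40 under the other scalings, all tried after seeing the data. The count well above background at HQ 8CS was 161 on at least 2 of the 3 arrays and 97 to 156 when 1 array was left out. The rise of the 34 named probes lay between 0.72 and 15.09 over the scalings. The rule had chosen these probes by their rise on the same arrays, so its kept direction is a description and no test. The lowest rise was that of HH_90599275, at 0.72 with normexp against 4.92 in the values reported. The cause of these shifts was not tested. Signal close to background limits all GR, 8CS and 10SS replicate 3 levels.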
